A study of Mus musculus with 35 samples.

Results

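The genes described here are 49 protein-coding genes of the G2/M transition and the mitotic spindle, taken by gene name from a table of 54354 genes in 35 libraries of mouse colon tumour organoids. All 49 were found once in the table, and all 49 had enough reads to be tested in every comparison. Organoids are epithelial cells grown as hollow or budding clusters in a gel. Those used here carried the genotype labelled AKP. The labels do not spell out its alleles, the strain, the age of the mice, the doses or the treatment times. The library names of the carmofur experiment read nAKP, which the labels do not explain.

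The organoids were treated in culture in a pair of experiments, each with its own untreated organoids of the same genotype. Palmitic acid (PA), the saturated fatty acid from which cells start ceramide synthesis, was given to 3 libraries labelled batch 1 and 2 labelled batch 2. Their 3 control libraries are assigned to neither batch and serve both, so the batches' changes are not independent of each other. Carmofur, which blocks ceramidases and also releases the antimetabolite fluorouracil, was given to 15 libraries, with 12 control libraries. The series was designed to show how fatty acid and ceramide levels alter transcription in these organoids. The labels do not say whether replicates came from separate mice or cultures, so p-values here measure the spread between libraries, which may be partly technical.

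Entry into mitosis is driven by cyclin B bound to the kinase Cdk1. Aurora and Polo-like kinases then build the spindle, kinesins and other microtubule-binding proteins shape it, and the kinetochore ties each chromosome to its fibres. The spindle checkpoint holds the cell until all chromosomes are attached, after which the anaphase-promoting complex marks securin and cyclin B for destruction. Transcripts of these genes are known to rise together late in the cell cycle. In the colon they mark the dividing crypt compartment.

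Many promoters of this class are known to hold a cell cycle genes homology region (CHR), which is bound by the MuvB core of the DREAM and B-Myb complexes, and CCAAT boxes, bound by NF-Y. RefSeq promoter sequences on GRCm38.p6, from 250 bases before to 50 bases after a listed start, were matched by symbol for 42 of the 49 genes, with 45 entries in all. Some listed starts are not those of the gene positions used below, from GENCODE M21. The windows of Kif2c (chr4:117178723-117179022) and Cdca8 (chr4:124936868-124937167) lie inside minus-strand genes that start at 117182639 and 124939311 there. Ccna2, Incenp, Tpx2, Dlgap5, Kif20a, Aurkb and Cdc25c had no entry. TTTGAA or TTCGAA, on either strand, was found in 35 of the 45 windows (77.8%), against 19.2% of all 32851 windows in the table. CCAAT, on either strand, was found in 77.8% of them, against 37.4% of all windows. At least 2 CCAAT boxes were found in 55.6% of the 45 windows and in 11.7% of all, and both kinds of motif in 68.9% and 7.52%. These are letter matches, which may overlap each other, and say nothing about whether a factor was bound.

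The promoter windows below show these motifs in 3 genes that rose with carmofur (Ccnb1, Cenpf and Aurka) and in 2 abundant proliferation genes that did not pass the test there (Top2a and Mki67). The choice was by lowest p among genes with 1 entry whose window held at least 1 motif, so they are not typical of all genes that rose. Kif2c also met this choice, with a lower p than Aurka, but is not printed. The 3 printed are therefore not the 3 with the lowest p. The window of Kif2c held 1 CHR and no CCAAT box, while the 3 printed all held CCAAT boxes. Capitals mark each CHR or CCAAT match, as TTTGAA or TTCGAA for a CHR and as CCAAT for a CCAAT box on the strand printed, and as TTCAAA for a CHR and ATTGG for a CCAAT box where the match is on the other strand.
Ccnb1, chr13:100786437-100786736, minus strand: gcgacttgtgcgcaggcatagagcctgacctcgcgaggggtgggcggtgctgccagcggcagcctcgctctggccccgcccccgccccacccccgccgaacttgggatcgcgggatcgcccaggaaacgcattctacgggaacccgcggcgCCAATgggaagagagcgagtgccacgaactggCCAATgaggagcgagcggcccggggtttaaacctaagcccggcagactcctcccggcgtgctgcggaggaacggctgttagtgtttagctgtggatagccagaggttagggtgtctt
Cenpf, chr1:189688037-189688336, minus strand: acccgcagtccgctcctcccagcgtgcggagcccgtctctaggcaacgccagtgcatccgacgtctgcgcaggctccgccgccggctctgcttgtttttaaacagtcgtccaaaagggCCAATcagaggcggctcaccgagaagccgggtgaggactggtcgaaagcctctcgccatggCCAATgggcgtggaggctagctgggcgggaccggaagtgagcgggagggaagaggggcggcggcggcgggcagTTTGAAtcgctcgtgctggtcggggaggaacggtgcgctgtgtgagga
Aurka, chr2:172370521-172370820, minus strand: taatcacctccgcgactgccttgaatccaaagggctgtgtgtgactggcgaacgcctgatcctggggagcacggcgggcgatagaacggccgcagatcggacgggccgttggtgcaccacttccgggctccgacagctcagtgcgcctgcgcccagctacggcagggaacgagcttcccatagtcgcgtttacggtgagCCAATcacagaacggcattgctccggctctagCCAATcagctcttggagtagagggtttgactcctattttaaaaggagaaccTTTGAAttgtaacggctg
Top2a, chr11:99024140-99024439, minus strand: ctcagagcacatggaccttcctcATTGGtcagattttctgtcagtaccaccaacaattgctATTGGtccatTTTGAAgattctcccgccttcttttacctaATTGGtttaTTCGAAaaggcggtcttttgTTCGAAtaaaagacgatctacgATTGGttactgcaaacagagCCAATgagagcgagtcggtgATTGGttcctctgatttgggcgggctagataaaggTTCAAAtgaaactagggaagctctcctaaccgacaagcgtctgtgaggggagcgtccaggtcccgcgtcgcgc
Mki67, chr7:135716330-135716629, minus strand: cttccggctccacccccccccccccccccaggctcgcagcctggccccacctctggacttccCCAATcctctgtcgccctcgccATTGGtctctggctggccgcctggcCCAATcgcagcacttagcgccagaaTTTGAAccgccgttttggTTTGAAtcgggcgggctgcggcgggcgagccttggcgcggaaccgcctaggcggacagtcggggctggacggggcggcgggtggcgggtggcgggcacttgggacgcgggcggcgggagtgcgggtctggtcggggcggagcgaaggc

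The window of Ccnb1 held 2 CCAAT boxes and no CHR by these letters, and those of Cenpf and Aurka held 2 CCAAT boxes and 1 CHR each. That of Top2a held 6 CCAAT boxes and 4 CHR matches, and that of Mki67 held 3 and 2. Among the windows of the genes that rose with carmofur, 72.2% of 18 held a CHR and 66.7% a CCAAT box; among the windows of the other genes, 81.5% of 27 held a CHR and 85.2% a CCAAT box. Of the genes that rose with carmofur, Birc5, Nusap1, Pttg1 and Tacc3 had windows that held neither motif.

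Values are estimated counts per gene, given below as CPM, a gene's share of its library's counts on a common scale, after trimmed-mean scaling within each experiment, so levels are not set against each other across experiments. CPM is not divided by transcript length and ranks no gene against another. Total counts per library ran from 2138905 to 2845017 in PA batch 1, from 2406582 to 3742289 in PA batch 2 and from 762888 to 2511723 in the PA controls. They ran from 3127275 to 10609563 with carmofur and from 1663750 to 8124707 in the carmofur controls. No gene of the 49 was at 0 in any library, but the lowest count was 1, for Cdc25c in carmofur control 5. Plk1 had counts of 2 in carmofur control 1 and 3 in carmofur control 6. Standard errors (SE) with carmofur were widest for Cdc25c, Plk1 and Nek2, at 0.51, 0.50 and 0.46 on the log2 scale. Pseudogenes that carry the names of Ccnb1, Ccnb2, Kif22 and Kif4 averaged at most 0.457 counts per library. Colon epithelial markers were detected in all groups, except Cdx1, which was at 0 in both PA batch 2 libraries.

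Library numbers in the carmofur experiment were divided here into 3 runs of 12 numbers, called library blocks. The numbers run on without a gap from block to block, and the numbers that are missing lie inside the blocks. The labels do not call them batches. Block 1 held 6 carmofur and 3 control libraries, block 2 held 6 and 3, and block 3 held 3 and 6. Within a block, each set of 3 consecutive numbers holds libraries of 1 group only. All libraries of the experiment were used in the main comparison, and results within blocks are given beside it.

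Carmofur-treated organoids had more transcript of the mitotic genes. Their summed level ran from 8100 to 11933 CPM with a median of 9732 in the 15 carmofur libraries, and from 6135 to 7959 CPM with a median of 6845 in the 12 controls. The groups did not overlap. Within blocks the sum was 9731 ± 366 CPM with carmofur and 6383 ± 310 CPM in controls in block 1 (SD, n = 6 and 3). In block 2 it was 8999 ± 629 CPM and 6658 ± 128 CPM (n = 6 and 3), and in block 3 it was 11596 ± 411 CPM and 7493 ± 382 CPM (n = 3 and 6). The carmofur libraries lay above the controls in each block, and both groups were highest in block 3. In bulk RNA, more cells in mitosis and more mitotic transcript per cell cannot be told apart.

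**Figure D1:**
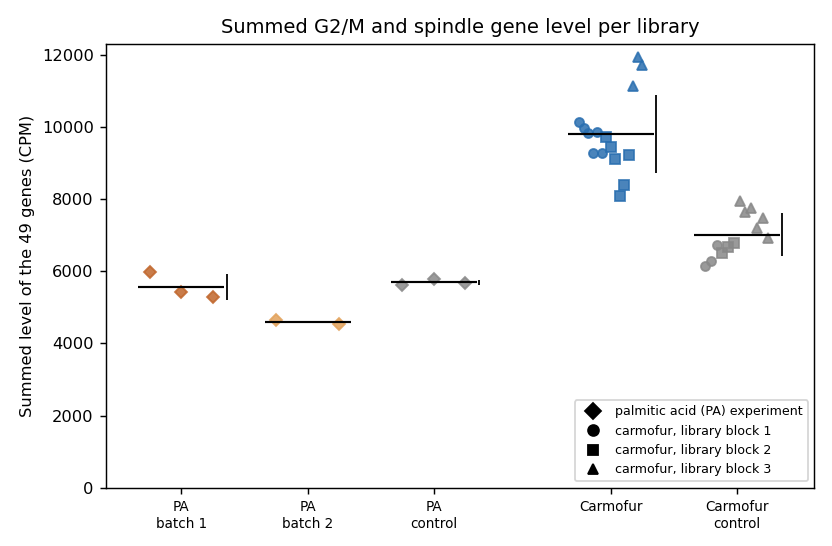
Summed level of the 49 genes in each library, in CPM scaled within each experiment. Points are libraries, with a marker shape for each library block of the carmofur experiment; horizontal lines are group means and vertical lines ± 1 SD for groups of 3 or more. The 15 carmofur libraries sit between 8100 and 11933 CPM, above all 12 controls, and the 2 PA batch 2 libraries sit below the 3 PA controls.

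Of the 49 genes, 18 rose with carmofur and none fell at an adjusted p of 0.05 in edgeR's quasi-likelihood test. Among all 9992 genes tested, 5.21% were called higher and 3.8% lower. At an unadjusted p of 0.05 the counts were 26 higher and 0 lower, against 10.5% and 8.47% of all genes. DESeq2 likewise called 18 higher and 0 lower, against 6.63% of all genes called higher and 11.7% called in either direction. Fitted log2 fold changes were positive for 46 of the 49, against 50.2% of all genes. They ran from -0.81 for Cdc25c to 1.3 for Kif20a, with a median of 0.44, against a median of 0.00165 over all genes tested. Of the rise in the summed level, 17.9% lay in Ccnb1, 9.64% in Pttg1, 8.78% in Birc5, 8.58% in Nusap1 and 7.18% in Bub3. Each carmofur library had between 24 and 47 of the 49 genes above the control median, with a median of 39, and each control had between 18 and 36. The carmofur library with 24 was carmofur 10, which was also the lowest of the 15 for 11 genes.

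**Figure D2:**
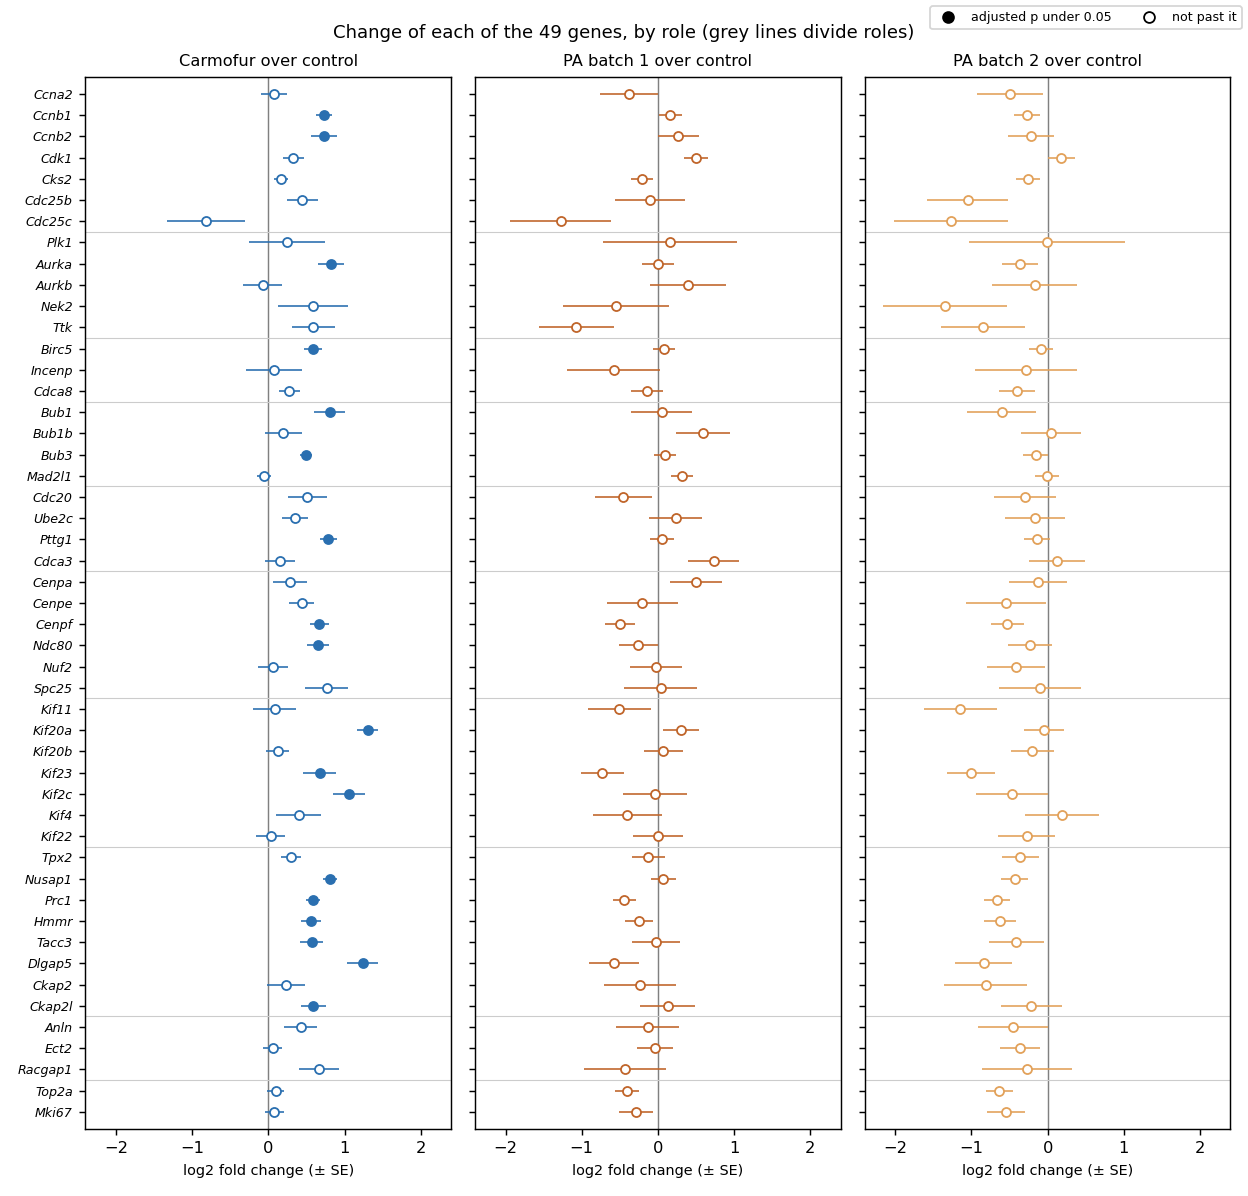
Log2 fold change of each of the 49 genes over its own control, with bars of ± 1 SE, for carmofur, PA batch 1 and PA batch 2; grey lines divide the functional classes. Filled points passed an adjusted p of 0.05 in edgeR's quasi-likelihood test: 18 with carmofur, all of them positive, and none in either PA batch.

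Among the 7 cyclins, Cdk1 and its activators, both B-type cyclins rose with carmofur. Ccnb1 (chr13:100778650-100786570), the main cyclin partner of Cdk1 at mitotic entry, ran from 931 to 1718 CPM with a median of 1199 in carmofur libraries, and from 527 to 1066 CPM with a median of 746 in controls. It was above every control in 13 of the 15 carmofur libraries, and its fold change was 1.66 (log2 0.73 ± 0.10 SE; edgeR adjusted p = 1.65e-06). Ccnb2, the second B-type cyclin, had a median of 131 CPM with carmofur and 70.8 CPM in controls, a log2 change of 0.73 ± 0.17 (adjusted p = 0.00297). The groups overlapped: 8 carmofur libraries were above the highest control.

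Cdk1, the kinase they activate, ran from 210 to 626 CPM with a median of 367 in carmofur libraries, and from 205 to 394 CPM with a median of 287 in controls. Its log2 change was 0.33 ± 0.13 and did not pass the test (adjusted p = 0.131). Ccna2, the cyclin of S phase and early G2, was 74.0 ± 16.7 CPM with carmofur (SD, n = 15) and 70.2 ± 24.6 CPM in controls (n = 12). Cks2, a small Cdk-binding subunit, and Cdc25b, a phosphatase that activates Cdk1, had log2 changes of 0.17 and 0.45 that did not pass. Cdc25c, the other Cdk1-activating phosphatase of the list, had the lowest log2 change of the 49. It ran from 1.10 to 11.3 CPM with carmofur and from 0.306 to 18.0 CPM in controls, with medians of 5.81 and 11.8 CPM. The low ends rest on few counts: its counts ran from 5 to 76 with carmofur and from 1 to 125 in controls. None of the 15 carmofur libraries was above the control median, but the groups overlapped and the log2 change of -0.81 ± 0.51 did not pass (adjusted p = 0.434).

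One of the 5 mitotic kinases rose. Aurka, which matures centrosomes and builds spindle poles, ran from 109 to 330 CPM with a median of 165 in carmofur libraries, and from 69.3 to 142 CPM with a median of 96.6 in controls. The log2 change was 0.82 ± 0.17 (adjusted p = 7.30e-04). Its relative Aurkb, the kinase of the chromosomal passenger complex, was 32.2 ± 13.8 CPM with carmofur and 33.9 ± 16.3 CPM in controls, with a log2 change of -0.08 ± 0.26 (adjusted p = 0.938). Plk1, the Polo-like kinase of mitotic entry and exit, was 7.69 ± 3.04 CPM with carmofur and 6.49 ± 5.92 CPM in controls, with a log2 change of 0.24 ± 0.50 (adjusted p = 0.878). Nek2, a centrosome kinase, and Ttk, the checkpoint kinase also called Mps1, had log2 changes of 0.58 and 0.59 that did not pass.

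In the chromosomal passenger complex, which corrects wrong attachments, 1 of 3 genes rose. Birc5 (survivin) ran from 441 to 1189 CPM with a median of 675 with carmofur and from 313 to 714 CPM with a median of 475 in controls (log2 0.59 ± 0.12; adjusted p = 6.97e-04). Cdca8 (borealin) had a log2 change of 0.28 and the scaffold Incenp one of 0.07, neither past the test. Of the 4 spindle checkpoint genes, 2 rose. Bub3 ran from 491 to 824 CPM with carmofur and from 433 to 591 CPM in controls, with 12 carmofur libraries above every control (log2 0.50 ± 0.08; adjusted p = 1.06e-05). Bub1, the kinase that works with Bub3 at kinetochores, had medians of 100 and 55.0 CPM (log2 0.80 ± 0.20; adjusted p = 0.00628). Mad2l1, the inhibitor of Cdc20, was 506 ± 83.5 CPM with carmofur and 527 ± 80.9 CPM in controls, a log2 change of -0.06. Bub1b had a log2 change of 0.20 that did not pass.

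Anaphase exit genes held 1 gene of 4 that rose. Pttg1, or securin, which blocks separase until anaphase, ran from 390 to 929 CPM with a median of 558 in carmofur libraries, and from 288 to 465 CPM with a median of 360 in controls. It was above every control in 14 of 15 carmofur libraries (log2 0.79 ± 0.11; adjusted p = 2.64e-06). Cdc20, the activator of the anaphase-promoting complex, ran from 13.8 to 100 CPM with a median of 59.3 with carmofur and from 7.14 to 62.8 CPM with a median of 43.0 in controls. Its log2 change of 0.51 ± 0.26 did not pass (adjusted p = 0.274). Ube2c, the ubiquitin-conjugating enzyme of that complex, and Cdca3 had log2 changes of 0.35 and 0.16 that did not pass.

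Of the 6 kinetochore and centromere genes, 2 rose with carmofur. Cenpf, a large kinetochore and microtubule-binding protein, ran from 183 to 433 CPM with a median of 264 in carmofur libraries, and from 105 to 239 CPM with a median of 184 in controls (log2 0.67 ± 0.13; adjusted p = 1.92e-04). Ndc80, which holds the microtubule end at the kinetochore, had medians of 118 and 73.4 CPM (log2 0.65 ± 0.15; adjusted p = 0.00168). Its partners in the same complex did not pass: Spc25 had a log2 change of 0.77 ± 0.29 (adjusted p = 0.0912) and Nuf2 one of 0.06 ± 0.20 (adjusted p = 0.928). Cenpe, the kinetochore kinesin, and Cenpa, the centromeric histone, had log2 changes of 0.44 and 0.28 that did not pass.

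Of the 7 kinesins, 3 rose, among them the gene with the largest log2 change of the 49. Kif20a, the kinesin of the central spindle also called Mklp2, ran from 159 to 435 CPM with a median of 232 in carmofur libraries, and from 66.8 to 135 CPM with a median of 105 in controls. The groups did not overlap, and the fold change was 2.47 (log2 1.3 ± 0.14; adjusted p = 1.14e-08). Kif20a and Nusap1 were the 2 genes of the 49 whose carmofur libraries all lay above all controls, against 0.59% of all genes tested. Kif2c, a microtubule-depolymerising kinesin at centromeres, had medians of 77.5 and 34.3 CPM (log2 1.06 ± 0.21; adjusted p = 3.65e-04). Kif23, the kinesin of centralspindlin, had medians of 119 and 75.2 CPM (log2 0.67 ± 0.22; adjusted p = 0.0416). The Kif23 call was lost in 7 of 9 repeats that each left out a set of 3 consecutive library numbers, with adjusted p up to 0.189. Kif11, the motor that pushes spindle poles apart, was 40.4 ± 16.7 CPM with carmofur and 38.0 ± 14.9 CPM in controls, a log2 change of 0.09 ± 0.28 (adjusted p = 0.933). Kif4, Kif20b and Kif22 had log2 changes of 0.40, 0.12 and 0.03 that did not pass.

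Spindle assembly was the class with the most genes called, 6 of 8. Nusap1 (chr2:119618298-119651244), which bundles microtubules near chromosomes, ran from 428 to 708 CPM with a median of 566 in carmofur libraries, and from 223 to 385 CPM with a median of 336 in controls (log2 0.81 ± 0.10; adjusted p = 6.15e-08). Prc1 (chr7:80294450-80316259), which crosslinks antiparallel microtubules of the central spindle, ran from 476 to 687 CPM with a median of 528 with carmofur and from 241 to 479 CPM with a median of 358 in controls. It was above every control in 14 of 15 carmofur libraries (log2 0.59 ± 0.09; adjusted p = 1.03e-05). Dlgap5, or Hurp, which stabilises kinetochore fibres, had medians of 98.5 and 42.6 CPM and a fold change of 2.36 (log2 1.24 ± 0.20; adjusted p = 1.91e-05). Hmmr, Tacc3 and Ckap2l, which bind the spindle or its poles, rose by 0.56, 0.57 and 0.59 on the log2 scale (adjusted p = 0.00346, 0.0110 and 0.0153). In the same repeats with a set left out, the Ckap2l call was lost in 5 of 9 (adjusted p up to 0.104) and the Tacc3 call in 1 (adjusted p = 0.0685); within block 2 alone Ckap2l had a log2 change of -0.18. Tpx2, the activator of Aurka on the spindle, had a log2 change of 0.30 ± 0.13 (adjusted p = 0.166), and Ckap2 one of 0.23; neither passed.

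None of the 3 cytokinesis genes or the 2 chromosome structure genes passed. Racgap1, the partner of Kif23 in centralspindlin, had a log2 change of 0.66 ± 0.27 (adjusted p = 0.128), Anln one of 0.43 and Ect2 one of 0.06. Top2a, the topoisomerase that untangles chromosomes, ran from 263 to 510 CPM with a median of 406 with carmofur and from 248 to 485 CPM with a median of 359 in controls, a log2 change of 0.10 ± 0.11 (adjusted p = 0.744). Mki67, the proliferation marker that coats mitotic chromosomes, ran from 92.7 to 232 CPM with a median of 152 with carmofur and from 108 to 198 CPM with a median of 145 in controls, a log2 change of 0.08 ± 0.12 (adjusted p = 0.835). For both genes the ranges of the groups overlapped over most of their length.

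**Figure D3:**
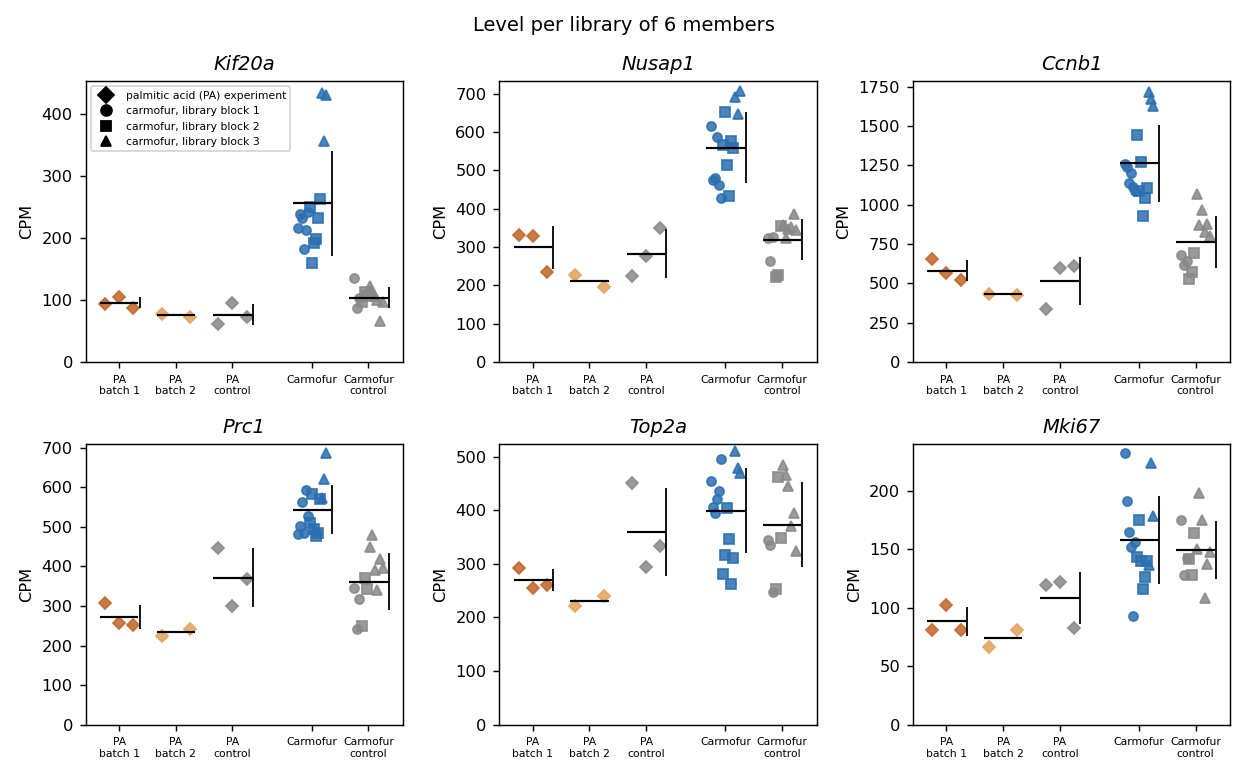
Level per library, in CPM scaled within each experiment, of 4 genes that rose with carmofur (Kif20a, Nusap1, Ccnb1 and Prc1) and 2 that did not pass (Top2a and Mki67). Horizontal lines are group means, vertical lines ± 1 SD for groups of 3 or more, and marker shapes give the library block. All 15 carmofur libraries are above all 12 controls for Kif20a and Nusap1, while for Top2a and Mki67 the ranges of the 2 groups overlap over most of their length.

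Most of the genes called also had positive changes within each library block. With each block fitted alone, 12 genes rose in block 1, 6 in block 2 and 12 in block 3, where 1.05%, 3.26% and 3.1% of all genes tested were called higher. The median log2 change of the 49 genes was 0.60 in block 1, 0.26 in block 2 and 0.59 in block 3. Ccnb1, Kif20a, Nusap1 and Prc1 were called in each block. Of the 18 genes called over all libraries, 17 had a positive log2 change in every block. The exception was Ckap2l, at 1.04, -0.18 and 0.75. The blocks are parts of the libraries in which these genes were called, so these signs are not separate support for the calls. Of all 49 genes, 28 were positive in every block, and Cdc25c alone was negative in every block. The share of all genes tested that were positive in every block was not counted.

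A test of the block by carmofur interaction, chosen after the block values were seen, called 2 of the 49 genes, against 1.78% of all genes tested. Pttg1 had log2 changes of 0.31, 1.33 and 0.50 in blocks 1, 2 and 3 (adjusted p = 0.00165), and Kif20a had 1.02, 1.04 and 2.0 (adjusted p = 0.0263). At an unadjusted p of 0.05 the interaction held 14 of the 49 genes, against 11.6% of all. With block as a covariate, 20 genes rose, against 6.05% of all genes. With counts summed within sets of 3 consecutive library numbers, which leaves 5 carmofur and 4 control sums, 10 genes rose, against 1.97%.

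**Figure D4:**
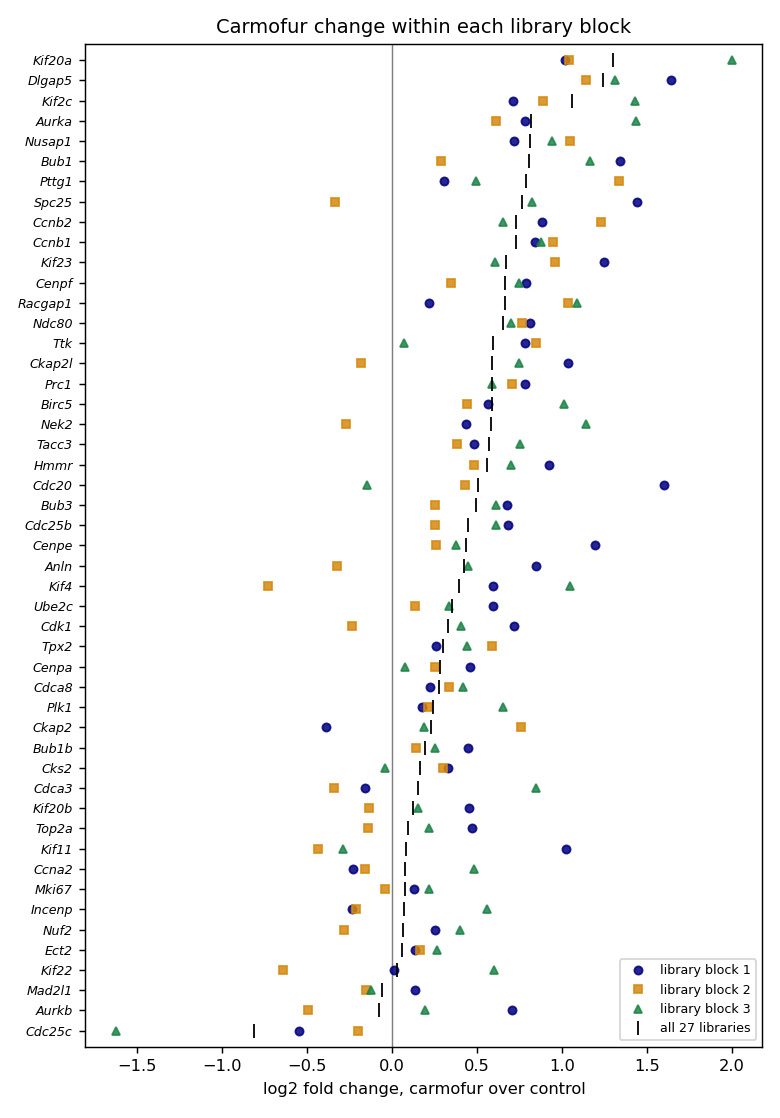
Log2 fold change of each of the 49 genes, carmofur over control, within library blocks 1, 2 and 3 (coloured points), with black ticks for the fit over all 27 libraries; genes are ordered by that fit. The points of Kif20a, Ccnb1, Nusap1 and Prc1 are positive in each block, and those of Pttg1 and Kif20a differ between blocks, with interaction adjusted p of 0.00165 and 0.0263.

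Palmitic acid gave no call among the 49 genes in either batch. In batch 1, where 0.559% of all 9845 genes tested were called, 0 rose and 0 fell in edgeR's test, and DESeq2 also called 0. At an unadjusted p of 0.05 there were 3 higher and 5 lower genes, against 4.23% and 3.5% of all genes. Log2 changes were positive for 19 genes and negative for 30, with a median of -0.04. The summed level was 5980, 5421 and 5299 CPM in the batch 1 libraries, against 5633, 5780 and 5672 CPM in the controls, and the groups overlapped.

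The genes of batch 1 with the lowest p went both ways. Cdk1 was at 326, 252 and 300 CPM in batch 1, against 197, 212 and 211 CPM in controls, without overlap (log2 0.50 ± 0.16; edgeR adjusted p = 0.188). Prc1 was at 306, 257 and 252 CPM, against 447, 299 and 368 CPM in controls (log2 -0.44 ± 0.15; adjusted p = 0.301). For Prc1, 2 of the 3 batch 1 values were below all controls. Kif23 was at 43.9, 43.2 and 51.4 CPM in batch 1, against 90.2, 80.3 and 60.7 CPM in controls (log2 -0.73 ± 0.28; adjusted p = 0.416). Top2a was at 293, 256 and 261 CPM, against 451, 294 and 333 CPM in controls (log2 -0.41 ± 0.15; adjusted p = 0.419). Libraries of batch 1 did not overlap the controls for 3 genes on the high side (Cdk1, Mad2l1 and Cdca3, against 6.92% of all genes) and 3 on the low side (Cdc25c, Kif23 and Top2a, against 6.12%).

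Other genes of the fixed set did not separate in batch 1. Ccnb1 was at 656, 563 and 523 CPM, against 335, 598 and 611 CPM in controls (log2 0.16 ± 0.15), and Mki67 at 81.4, 102 and 81.2 CPM, against 120, 122 and 82.3 CPM (log2 -0.28 ± 0.22). The sign for Ccnb1 rested on PA control 1, the shallowest library: its log2 change was -0.06 without it. Kif11, Cdc20, Aurkb and Plk1 had log2 changes of -0.51, -0.45, 0.39 and 0.16, with SEs of 0.42, 0.37, 0.50 and 0.88.

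In batch 2 most of the 49 genes had a negative fitted log2 change, and none was called. The summed level was 4649 and 4552 CPM in the 2 batch 2 libraries, against 5633, 5780 and 5672 CPM in the controls, without overlap. Log2 changes were negative for 45 genes and positive for 4, against 50.9% of all genes negative, and the median was -0.36, against -0.01 over all genes. At an adjusted p of 0.05, 0 genes rose and 0 fell in edgeR's test, against 0.325% of all genes called, and DESeq2 also called 0. At an unadjusted p of 0.05, 9 were lower and 0 higher, against 3.29% and 3.81% of all genes. For 14 genes both batch 2 libraries lay below all 3 controls, against 9.02% of all genes.

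Prc1 was at 224 and 243 CPM in batch 2, against 447, 299 and 368 CPM in controls, a log2 change of -0.66 ± 0.17 (edgeR adjusted p = 0.0659). Top2a was at 221 and 240 CPM, against 451, 294 and 333 CPM in controls, a log2 change of -0.63 ± 0.18 (adjusted p = 0.0972). Both genes were below all controls. Without PA control 2 both passed edgeR's test, with adjusted p of 0.0110 for Prc1 and 0.0226 for Top2a. They were the 2 genes then called, against 0.504% of all genes called in either direction. In that fit 37 of the 49 genes were negative and 12 positive, and the median log2 change was -0.31. With all PA libraries, Kif23 was at 31.4 and 45.3 CPM, against 90.2, 80.3 and 60.7 CPM in controls (log2 -1.0 ± 0.32, edgeR adjusted p = 0.227). Hmmr was at 122 and 113 CPM, against 178, 193 and 174 CPM in controls (log2 -0.63 ± 0.21; adjusted p = 0.265). Kif11 was at 13.8 and 16.2 CPM, against 42.5, 17.6 and 41.4 CPM in controls (log2 -1.15 ± 0.48; adjusted p = 0.539). Mki67, at 66.9 and 80.7 CPM against 120, 122 and 82.3 CPM in controls, was also below all of them (log2 -0.55 ± 0.25; adjusted p = 0.633).

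Ccnb1 was at 434 and 428 CPM in batch 2, against 335, 598 and 611 CPM in controls, and overlapped them (log2 -0.27 ± 0.17). Cdk1 was the gene of the 49 whose batch 2 libraries both lay above the controls, at 232 and 237 CPM against 197, 212 and 211 CPM (log2 0.18 ± 0.18; adjusted p = 0.979), which held for 10.9% of all genes. Cdc20, Aurkb and Plk1 had log2 changes of -0.30, -0.17 and -0.01, each smaller than its SE. By class, all 8 spindle assembly genes, all 6 kinetochore genes and all 5 mitotic kinases had negative log2 changes in batch 2. So did the 3 chromosomal passenger, 3 cytokinesis and 2 chromosome structure genes. With 45 of the 49 genes negative, such agreement sets no class apart. The sign of Plk1 turned in 5 of 15 alternatives.

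The batches were also compared with each other. Batch 2 had 0 genes called against batch 1, where 0.102% of all genes were called, 0.0609% higher and 0.0406% lower. At an unadjusted p of 0.05 there were 3 lower and 0 higher genes, against 1.3% and 1.07% of all genes, and DESeq2 also called 0. Log2 changes of batch 2 over batch 1 were negative for 42 of the 49 genes, with a median of -0.32, and for 20 genes both batch 2 libraries lay below all 3 batch 1 libraries, against 8.7% of all genes. For 1 gene they lay above them, against 7.78% of all genes.

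Carmofur and palmitic acid were set against each other by testing the difference of their changes, each over its own control, in a fit of all 35 libraries. Over batch 1, the carmofur change was higher for 3 genes and lower for none, against 0.963% and 0.364% of all 9343 genes tested. Over batch 2 it was higher for 2 genes and lower for none, against 0.0963% and 0.0535% of all genes. Unadjusted, 14 genes were higher over batch 1 and 20 over batch 2 at p of 0.05, against 4.05% and 3.04% of all genes. None was lower in either, against 3.11% and 2.01% of all genes. The median difference was 0.54 on the log2 scale over batch 1 and 0.77 over batch 2. Of the 49 genes, 42 had a positive log2 change with carmofur and a negative one in PA batch 2, and all 18 genes that rose with carmofur were among them. For PA batch 1 those numbers were 29 and 9. With 46 of the 49 positive with carmofur and 45 negative in PA batch 2, a count of at least 42 was fixed, so it adds nothing to those numbers. The share of all genes with such opposite signs was not counted. The batch 1 and batch 2 differences share the carmofur libraries and the PA controls, so they do not support one another.

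Prc1 was called in both differences, by 1.03 ± 0.21 over batch 1 (edgeR adjusted p = 0.00685) and by 1.23 ± 0.24 over batch 2 (adjusted p = 0.00813). Prc1 averaged 544 ± 61.7 CPM with carmofur and 361 ± 72.0 CPM in the carmofur controls. Dlgap5 differed by 1.81 ± 0.47 over batch 1 (adjusted p = 0.0359) and Cenpf by 1.16 ± 0.29 (adjusted p = 0.0273). Nusap1 differed by 1.22 ± 0.26 over batch 2 (adjusted p = 0.0177). The calls are not firm against single PA libraries. With each PA library left out in turn, Prc1 over batch 1 was called in 7 of 8 fits, Cenpf in 3 and Dlgap5 in 2, and Prc1 and Nusap1 over batch 2 were called in 5 of 8 each. Prc1, Cenpf and Dlgap5 were all called in each fit without a PA batch 2 library, which leaves out no library of the batch 1 difference. Dlgap5 was called in no other fit. Fits without a PA control or batch 1 library called 0 to 2 genes over batch 1, against 0.193% to 0.524% of all genes. Likewise, fits without a PA batch 1 library leave out no library of the batch 2 difference. The differences for Ccnb1 were 0.56 and 0.97, for Cdk1 -0.18 and 0.12, for Plk1 0.09 and 0.25, for Cdc20 0.95 and 0.77, for Aurkb -0.47 and 0.07, for Kif11 0.59 and 1.22, for Top2a 0.50 and 0.71, and for Mki67 0.36 and 0.60 over batches 1 and 2, and none of them passed.

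Other lists of cell cycle genes were measured in the same fits. With carmofur 5.21% of all genes tested were called higher and 3.8% lower. Of 37 tested S phase and replication genes, 3 rose and 1 fell. Rrm2, the small subunit of ribonucleotide reductase, was 790 ± 259 CPM with carmofur and 400.0 ± 112 CPM in controls (log2 0.98 ± 0.16; edgeR adjusted p = 3.61e-05). Mcm3, of the replicative helicase, was 142 ± 41.6 CPM with carmofur and 84.7 ± 27.7 CPM in controls (log2 0.75 ± 0.18; adjusted p = 0.00310). Rpa3, of the single-strand binding protein, fell to 245 ± 51.4 CPM with carmofur, against 337 ± 62.9 CPM in controls (log2 -0.46 ± 0.11; adjusted p = 0.00452). None of 17 genes of the anaphase-promoting complex and its regulators and none of 19 condensin and cohesin genes passed; the lowest p among them were those of Cdc26 (log2 -0.35; adjusted p = 0.0791) and Espl1, or separase (log2 1.96; adjusted p = 0.0651).

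Among 25 other kinetochore genes 0 rose and Cenpx fell, against the same 5.21% and 3.8% of all genes. Cenpx was at 136 ± 31.4 CPM with carmofur and 209 ± 30.0 CPM in controls (log2 -0.61 ± 0.12; adjusted p = 2.20e-04). Among 25 G2/M regulators Lin9, a subunit of the MuvB core, was the 1 gene that rose, at 62.2 ± 24.1 CPM with carmofur and 31.8 ± 12.4 CPM in controls (log2 0.97 ± 0.22, edgeR adjusted p = 0.00172). Cenpx and Lin9 are each 1 gene of 25, near the shares of all genes called, so neither count sets its list apart. Of 8 G1 cyclins and their kinases, 3 rose: Ccnd3 at 160 ± 42.6 CPM with carmofur and 81.8 ± 14.5 CPM in controls (adjusted p = 1.32e-06), Ccne2 at 346 ± 60.0 and 198 ± 61.1 CPM (adjusted p = 1.82e-05), and Cdk2 at 43.7 ± 25.4 and 21.4 ± 9.73 CPM (adjusted p = 0.0358). The median log2 change was 0.25 for the S phase list, 0.25 for the other kinetochore genes, 0.30 for the G2/M regulators, 0.62 for the G1 list, -0.05 for the anaphase-promoting complex and 0.06 for condensin and cohesin. With palmitic acid no gene of these 6 lists was called in either batch; Zwint, a kinetochore gene, had the lowest p in both, with log2 changes of 0.56 in batch 1 and 0.61 in batch 2 (adjusted p = 0.162 and 0.198).

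Markers of other cells were measured beside these changes. Of 9 mesenchymal, 7 immune and 6 endothelial and blood genes, all but Vim, Cd68, Pecam1 and at most 1 more were below 1 CPM on average in each group. Col1a1, Col1a2, Lum, Pdgfrb, Cd3e, Adgre1, Cdh5, Kdr, Hba-a1 and Hbb-bs were at 0 in all 35 libraries. The mesenchymal sum ran from 8.80 to 78.3 CPM with carmofur and from 3.78 to 68.5 CPM in controls, and the immune sum from 7.36 to 166 CPM and from 26.8 to 93.2 CPM. The sum of 12 colon epithelial genes ran from 4768 to 8239 CPM with carmofur and from 4323 to 5925 CPM in controls. Krt20 and Car1, which mark differentiated colon surface cells, rose with carmofur, Krt20 at 30.5 ± 10.1 CPM and 4.24 ± 4.15 CPM in controls (edgeR adjusted p = 1.01e-04) and Car1 at 841 ± 431 and 420 ± 172 CPM (edgeR adjusted p = 0.0119). No other epithelial gene tested passed with carmofur. Krt8, Krt18, Krt19, Lgals4, Vil1 and Cdx2 had positive log2 changes, from 0.01 for Krt18 to 0.32 for Krt19. Cdh1, Cldn7 and Epcam had negative ones, at -0.24, -0.18 and -0.09. In the PA experiment the epithelial sum ran from 3461 to 3589 CPM in batch 1, from 3602 to 3703 CPM in batch 2 and from 4300 to 4596 CPM in controls. Car1 fell in batch 1 (log2 -1.02 ± 0.14, edgeR adjusted p = 6.09e-07). In batch 2 its log2 change over the controls was -0.10 ± 0.15 and did not pass. Car1 was higher in batch 2 than in batch 1 (log2 0.92 ± 0.15, edgeR adjusted p = 1.65e-04). What part these shifts have in the changes of the mitotic genes was not tested.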

How the data were processed

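Per the submitters' processing notes, the authors quantified reads with Salmon 1.3.0 on mm10. The annotation release is not given in the sources used here. They deposited estimated counts per gene as whole numbers. A rounding step was applied on reading, which leaves whole numbers as they are. Per the labels' protocols libraries were poly(A)-selected and directional. Genes without a name held 0.0216% of counts. Gene positions came from GENCODE M21, which held all 49 genes, and promoter sequences from RefSeq.

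Counts were tested with edgeR 4.0.16 in R 4.3.3 (filterByExpr, trimmed-mean scaling, robust quasi-likelihood F test) in fits of 8 palmitic acid, 27 carmofur and 35 libraries in all. P-values were Benjamini-Hochberg adjusted over all genes tested, with a threshold of 0.05. SEs are the log2 change divided by the root of F. DESeq2 1.42.0 and limma 3.58.1 (voom), other scalings and filters, left-out libraries and library blocks were alternatives. Code was tested on simulated data. No pair of libraries in a group agreed within counting noise (chi-square per degree of freedom at least 7.87 over 178 pairs).

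Named were 8 genes by role, up to 10 of those passing with the lowest p (or the 4 with the lowest p) per comparison, and up to 3 per other list; any of the 49 could be named. The genes, lists and tests were chosen with earlier results of these data known. An immune marker is not reported here.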

Additional observations from a re-analysis of the deposited data

Results flagged for a closer look

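In 5 instances the change with carmofur and the change with palmitic acid, each over its own control, differed at an adjusted p of 0.05 in edgeR's test of the difference. Against PA batch 1, the differences in log2 change were 1.16 for Cenpf, 1.03 for Prc1 and 1.81 for Dlgap5. Against PA batch 2, they were 1.22 for Nusap1 and 1.23 for Prc1. With each PA library left out in turn, the adjusted p ran from 0.00505 to 0.0578 for Prc1, from 0.0190 to 0.145 for Cenpf and from 0.0396 to 0.224 for Dlgap5 against batch 1. Against batch 2 it ran from 0.00364 to 0.323 for Prc1 and from 0.0123 to 0.713 for Nusap1. Each range includes fits without a library of the other PA batch, which leave out no library of the difference tested. The experiments share no library, and treatment and experiment cannot be told apart beyond what each experiment's own control accounts for.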

How the results depend on the processing

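With carmofur, 18 genes were called higher, against 5.21% of all genes. The count was 20 with limma-voom (6.82% of all genes called higher) and with block as a covariate (6.05%). It was 15 with the replicate block (4.48%), 10 with library sets summed (1.97%) and 6 in block 2 alone (3.26%). With each set left out it ran from 15 to 19 (4.24% to 5.4%). Without carmofur control 1 and carmofur 8 and 10, which stood apart in an earlier analysis, it was 18 (5.21%). Ccnb1, Kif20a, Nusap1 and Prc1 were called in all 22 alternatives, Kif23 in 10 and Ckap2l in 13. The median log2 change of 0.44 was 0.60, 0.26 and 0.59 in blocks 1, 2 and 3. Replicate numbers did not pair libraries: deviations of same-numbered carmofur and control libraries correlated between -0.03 and 0.05, and none of 12 pairs was closest to its own number. Over all genes, 901 were called, and 3541 with no filter on low counts.

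With palmitic acid, merging the batches called 1 gene lower (Prc1), against 0.768% of all genes called in either direction. The batch 2 count of 0 lower was 1 with library-size scaling (0.356%) and 0 to 2 with single libraries left out (0.226% to 0.504%). The batch 1 median of -0.04 was -0.11 with the replicate block, -0.20 with batches merged and -0.154 to -0.0334 with libraries left out; that of batch 2 over batch 1 was -0.36 to -0.24. Genes higher with carmofur over batch 1 numbered 3 (0.963% of all genes), 5 with DESeq2 (2.27%) and 8 with limma-voom (2.25%). With libraries left out they numbered 0 to 3 (0.193% to 0.878%), and 3 only without a PA batch 2 library. Over batch 2 they numbered 2 (0.0963%), and 8 (0.869%), 10 (1.27%) and 0 to 2. The median difference over batch 2 of 0.77 was 0.63 to 0.93 with libraries left out.

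Signs were followed here for the genes called or with the lowest p and for the fixed set, not for all 49. In blocks 1, 2 and 3 fitted alone, 5, 18 and 5 of the 49 genes had a negative log2 change with carmofur. Among the genes followed, signs turned for genes that were not called, and for Ckap2l, which was -0.18 in block 2. With carmofur, block 2 gave -0.24 for Cdk1, -0.43 for Kif11, -0.14 for Top2a and -0.0371 for Mki67; block 3 gave -0.14 for Cdc20 and -0.29 for Kif11. Aurkb was 0.71 in block 1, 0.20 in block 3 and 0.12 with block as a covariate. With sets left out, Aurkb ran from -0.263 to 0.0848, Kif11 from -0.0854 to 0.213 and Mki67 from -0.0239 to 0.151. In PA batch 1 merging gave -0.0124 for Ccnb1, and Plk1 was -0.0678 with limma-voom and -0.12 with the replicate block; with libraries left out Ccnb1 ran from -0.0627 to 0.297, Plk1 from -0.65 to 0.51 and Aurkb from -0.0768 to 0.699. In PA batch 2 Plk1 was 0.0297 with limma-voom and 0.0493 with no filter; with libraries left out Plk1 ran from -1.24 to 0.63, Cdc20 from -0.51 to 0.0699 and Aurkb from -0.51 to 0.13. For batch 2 over batch 1 Plk1 was 0.10 with limma-voom, and with libraries left out Plk1 ran from -1.40 to 0.64 and Cdc20 from -0.12 to 0.42. For carmofur over PA, with libraries left out, Plk1 ran from -0.28 to 0.91 over batch 1 and from -0.39 to 1.49 over batch 2, and Aurkb over batch 2 from -0.21 to 0.40. The cause of these changes was not tested.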
